A study of Homo sapiens with 6 samples.

Results

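The interferon-stimulated genes are the genes that a cell switches on when type I, II or III interferon reaches its receptors, and 36 well-known ones were chosen by symbol. The rule lists gene names and uses no measured value, although the list was drawn up with earlier results of these data known, and 35 of the 36 were measured, each by 1 probe set, among 18417 genes tested. STAT2, a subunit of the interferon-activated transcription factor, was not analysed here. The measurements came from 6 single-channel expression arrays of MCF10A, a human breast epithelial cell line that does not form tumours, in a version named with ErbB2, a receptor tyrosine kinase. There were 3 arrays labelled RB-deficient (titles with the tag miRB) and 3 labelled RB-proficient (tag miNS), tags that the labels do not spell out. RB, the product of RB1, is the retinoblastoma protein, which holds E2F transcription factors in check, and the comparison was of cells labelled as lacking and as having it. Both groups were kept for 7 days in 3-D culture with Matrigel, a basement membrane extract, in medium with horse serum, insulin, cholera toxin, hydrocortisone, antibiotics and glutamine. No interferon, virus or other stimulus is named for either group, and the labels do not say whether the cells were a clone or a pool. Cells and matrix were lysed together, and the labels do not call the replicates separate cultures. The p-values therefore rest on the variation among these 6 arrays, some or all of which may be technical.

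Interferons bind receptors whose kinases, JAK1 and TYK2, phosphorylate STAT2. With IRF9 it enters a complex that binds the interferon-stimulated response element, a short promoter motif, and so switches on genes that sense viral RNA, block its translation or degrade it, tag proteins with the ubiquitin-like ISG15, and recruit lymphocytes. Many of these genes also have a low basal level in unstimulated epithelial cells, set by weak autocrine interferon and by IRF factors.

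RB1 itself had log2 values of 3.45, 5.09 and 6.04 in RB-deficient arrays 1, 2 and 3, against 7.01, 5.77 and 7.65 in RB-proficient arrays 1, 2 and 3. The highest RB-deficient value, in array 3, exceeded that of RB-proficient array 2, and the groups overlapped (difference −1.95, SE 0.76, adjusted p 0.302 in limma's test), and "RB-deficient" below is the label of the array. Values are log2 of intensities scaled to a common median, with a floor at 0, so a 0 has no order below it. Differences are RB-deficient minus RB-proficient on that log2 scale, n = 3 per group. Median deposited intensities were 21.4 to 28.05 in the RB-deficient arrays and 24.2 to 27.1 in the RB-proficient arrays. Over all genes the differences had a median of −0.21, and the number of arrays limits the precision.

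The interferon-stimulated genes differed in direction and size. IFIT1, EPSTI1, IFI35 and PARP9 had the smallest p-values and were 7.84-, 5.23-, 4.82- and 5.22-fold lower in the RB-deficient arrays, while XAF1 and HERC5 were on the higher side and USP18, RSAD2 and CMPK2 had nearly equal group means. By limma's test with Benjamini-Hochberg adjustment over all genes, 0 of 35 passed an adjusted p of 0.05 (0.00543% of all genes did), and their adjusted p-values ran from 0.206 to 0.988. At an unadjusted p under 0.05, 6 members were lower in the RB-deficient arrays (IFIT1, IFIT2, IFIT5, EPSTI1, IFI35 and PARP9), which is 17.1% of the members against 10.8% of all genes. In the same rule 1 member was higher (XAF1), which is 2.86% of the members against 2.85% of all genes. The groups did not overlap, with the RB-deficient values lower, for 6 members, 17.1% against 15.3% of all genes, and higher for 2 members, 5.71% against 7.12%. The shares without overlap lie near those of all genes, and no count is read as particular to the list. In all, 25 of 35 differences were below 0 (71.4%, against 58.6% of all genes), and the median of the members was −0.55, or −0.34 relative to the median of all genes. Without the 4 IFIT genes the median of the other 31 was −0.31, or −0.10 relative to all genes, and 3 of them (9.68%) were lower at the unadjusted p, against 10.8% of all genes. With a floor of 16 on the linear scale the median of the 35 was −0.19 and that of all genes 0. With each array centred on its gene median, 4 members were lower and 2 higher at the unadjusted p, against 6 and 1 without centring. The shares of all genes were then 8.8% and 4.24%. Without RB-proficient array 1 or array 3, 4 members passed that p in all, in place of 7, each of them lower. The shares of all genes lower and higher were 7.36% and 1.5% without RB-proficient array 1, and 5.35% and 1.46% without RB-proficient array 3. Without RB-deficient array 2, 10 members were lower with no overlap (28.6%, against 20% of all genes). Without RB-proficient array 1, RB-deficient array 1 or RB-deficient array 3, 4 members were higher with no overlap (11.4%), while the share of all genes was 9.7%, 12.1% and 15.5% in that order.

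**Figure D1:**
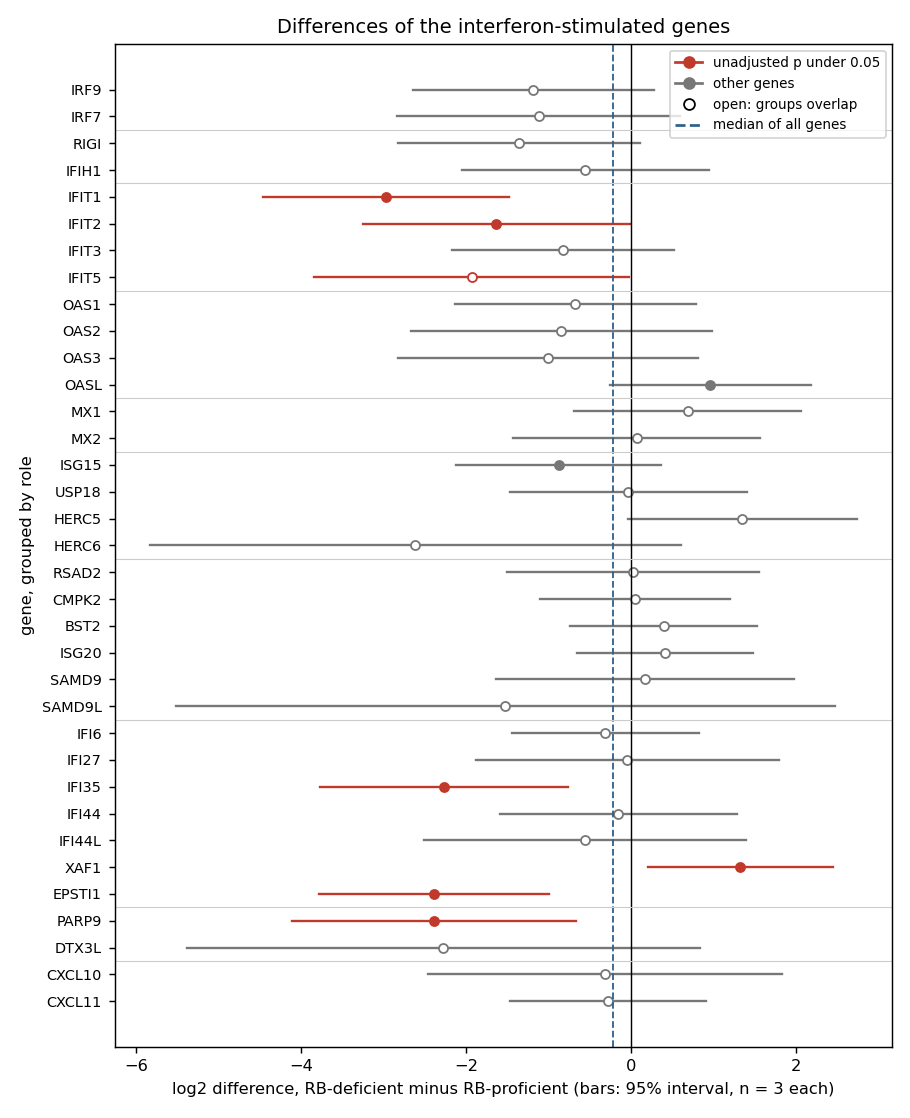
Each row is a gene, grouped by role, and the point is its difference of log2 values, RB-deficient minus RB-proficient, with the 95% interval from limma (n = 3 per group). Red marks an unadjusted p under 0.05, filled points have groups that do not overlap, and the dashed line is the median of all genes at −0.21. IFIT1, HERC6, EPSTI1 and PARP9 lie furthest left, and HERC5 and XAF1 furthest right.

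Promoters are shown because the response element of the pathway lies in them, and the windows printed are examples chosen among those that hold a match. RefSeq promoter windows (GRCh38.p14, 250 bases before to 50 after the start of a gene) were found for 29 of the 35 members, in 39 windows. They were searched on both strands for the core of the interferon-stimulated response element, written as GAAA, any 2 bases (NN) and GAAA, with matches allowed to overlap each other and no second motif searched. A match was present in 24 of 39 member windows (61.5%), against 3.57% of the 35116 windows of all genes in the table. Counted by gene, 20 of 29 members (69%) had a match in at least 1 window, against 4.38% of 27305 genes. The 20 members with a match had a median difference of −0.43, with 14 below 0, and the 9 with none had −1.18, with 7 below 0. In the sequences below, written 5′ to 3′ in the direction of the gene, capitals mark each match, which on the opposite strand reads TTTC, any 2 bases and TTTC. IFIT1 (chr10:89392373-89392672, plus strand), IFIT5 (chr10:89414318-89414617, plus strand), EPSTI1 (chr13:42992192-42992491, minus strand) and PARP9 (chr3:122564251-122564550, minus strand) were lower at the unadjusted p, ISG15 (chr1:1013247-1013546, plus strand) was lower with no overlap between groups, and HERC5 (chr4:88456869-88457168, plus strand) had the highest difference above 0.
IFIT1: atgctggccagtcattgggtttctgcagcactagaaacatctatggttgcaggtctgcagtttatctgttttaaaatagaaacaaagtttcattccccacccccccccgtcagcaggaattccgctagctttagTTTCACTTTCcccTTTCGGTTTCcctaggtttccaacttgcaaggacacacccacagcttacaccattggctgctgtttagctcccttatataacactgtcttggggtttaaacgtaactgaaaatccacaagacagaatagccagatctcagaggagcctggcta
IFIT5: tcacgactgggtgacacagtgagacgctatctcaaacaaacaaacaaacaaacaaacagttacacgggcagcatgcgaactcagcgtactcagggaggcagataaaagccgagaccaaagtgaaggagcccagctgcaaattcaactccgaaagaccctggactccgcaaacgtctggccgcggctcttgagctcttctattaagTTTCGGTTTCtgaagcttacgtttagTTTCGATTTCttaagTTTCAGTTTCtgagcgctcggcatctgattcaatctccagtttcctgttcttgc
EPSTI1: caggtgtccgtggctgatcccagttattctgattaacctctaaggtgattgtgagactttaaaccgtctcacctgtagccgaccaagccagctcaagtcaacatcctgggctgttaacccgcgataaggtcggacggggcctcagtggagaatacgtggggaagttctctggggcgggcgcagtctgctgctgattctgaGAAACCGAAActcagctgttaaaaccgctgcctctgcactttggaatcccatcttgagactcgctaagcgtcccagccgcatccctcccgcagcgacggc
PARP9: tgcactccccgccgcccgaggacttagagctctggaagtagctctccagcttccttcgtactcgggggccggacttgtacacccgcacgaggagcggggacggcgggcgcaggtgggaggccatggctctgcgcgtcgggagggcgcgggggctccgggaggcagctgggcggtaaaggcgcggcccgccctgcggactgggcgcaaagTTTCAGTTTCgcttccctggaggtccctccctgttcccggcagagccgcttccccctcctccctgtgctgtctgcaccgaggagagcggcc
ISG15: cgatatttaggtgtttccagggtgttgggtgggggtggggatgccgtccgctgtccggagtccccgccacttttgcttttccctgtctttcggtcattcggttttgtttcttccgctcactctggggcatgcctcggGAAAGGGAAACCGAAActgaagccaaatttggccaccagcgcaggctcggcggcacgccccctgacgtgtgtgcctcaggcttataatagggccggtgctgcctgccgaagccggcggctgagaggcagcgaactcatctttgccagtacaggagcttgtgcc
HERC5: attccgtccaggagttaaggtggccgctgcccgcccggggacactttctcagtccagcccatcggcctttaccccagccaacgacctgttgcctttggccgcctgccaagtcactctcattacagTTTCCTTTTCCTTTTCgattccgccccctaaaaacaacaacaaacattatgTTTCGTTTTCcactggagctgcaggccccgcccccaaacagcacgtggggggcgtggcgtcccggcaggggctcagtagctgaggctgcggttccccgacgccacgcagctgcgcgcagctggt
IFIT5 and HERC5 each held 3 matches, IFIT1 and ISG15 each 2, and EPSTI1 and PARP9 each 1. In HERC5 and ISG15 a pair of matches overlapped. The PARP9 window overlapped by 137 bases the window of DTX3L, which runs the other way on the plus strand, and their single match was the same stretch, starting at base 122564332 of chromosome 3. HERC5, with 3 matches, and IFIT5, with 3 matches, had differences of opposite sign (1.35 and −1.93). HERC6, IFI35 and XAF1, which also lie near the ends of the differences, had no match in their windows. The pattern takes exactly 2 bases between the GAAA blocks, so forms of the element with another spacing were not counted. Having no match therefore does not show that a window lacks a response element. A match is a description of the letters and shows no binding.

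The signalling factors came next in the pathway. IRF9, the DNA-binding subunit of the interferon-activated complex, had values of 2.61, 5.03 and 4.05 in RB-deficient arrays 1, 2 and 3, against 4.98, 4.87 and 5.39 in the RB-proficient arrays. RB-deficient array 1 was far below the RB-proficient values and array 3 less so, array 2 lay among them, and the groups overlapped (difference −1.18, SE 0.65, adjusted p 0.451). Without RB-deficient array 1 the IRF9 difference was −0.54. IRF7, the factor that amplifies interferon production, had values of 1.73, 4.22 and 4.82 in the RB-deficient arrays, against 4.64, 4.91 and 4.58 in the RB-proficient arrays. Here too array 1 was far below, array 2 slightly below, and array 3 lay inside the RB-proficient range (difference −1.12, SE 0.76, adjusted p 0.541). The IRF7 difference was −0.19 without RB-deficient array 1 and −1.73 without RB-deficient array 3.

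The cytosolic RNA sensors RIGI and IFIH1, which detect viral double-stranded RNA, did not pass. RIGI had values of 3.55, 3.89 and 5.88 in the RB-deficient arrays, against 5.67, 5.89 and 5.84 in the RB-proficient arrays. The RB-proficient values of RIGI were close together, RB-deficient arrays 1 and 2 lay well below them, and array 3 lay within them (difference −1.36, SE 0.65, 95% interval −2.83 to 0.11, unadjusted p 0.0658). Without RB-deficient array 3 the RIGI difference was −2.08. IFIH1, the sensor MDA5, averaged 6.89 ± 0.90 (SD, n = 3) in the RB-deficient arrays and 7.44 ± 0.95 in the RB-proficient arrays, a difference of −0.55 that is smaller than the spread of either group.

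The IFIT family, tetratricopeptide proteins that bind foreign RNA and hold back its translation, was the only role group of more than 2 genes with all measured members lower (4 of 4, median −1.78). Of all genes, 58.6% had differences below 0. IFIT1 had values of 0.88, 0.00 and 2.42 in the RB-deficient arrays, against 4.36, 4.28 and 3.58 in the RB-proficient arrays. All RB-deficient values of IFIT1 were below all RB-proficient ones, and array 2 was at the floor. The difference of −2.97 (SE 0.66, 95% interval −4.46 to −1.48, 7.84-fold lower) had the smallest p of the members, 0.00135 unadjusted and 0.206 adjusted. Its size depends on the treatment of dim values, being −0.21 with a floor of 16 on the linear scale and −0.85 with an offset of 16.

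IFIT2, a relative that binds AU-rich RNA, had values of 2.42, 4.67 and 5.06 in the RB-deficient arrays, against 5.47, 6.24 and 5.32 in the RB-proficient arrays. The groups did not overlap, but arrays 2 and 3 came close to the RB-proficient values (difference −1.63, SE 0.72, unadjusted p 0.0494, adjusted p 0.364). IFIT5 had values of 1.34, 3.70 and 5.01 in the RB-deficient arrays, against 5.27, 5.80 and 4.76 in the RB-proficient arrays, so array 3 overlapped (difference −1.93, SE 0.85, unadjusted p 0.0484). Without RB-deficient array 1 the differences of IFIT2 and IFIT5 were −0.81 and −0.93. IFIT3, which stabilises IFIT1, averaged 4.80 ± 0.81 (SD, n = 3) in the RB-deficient arrays and 5.62 ± 0.66 in the RB-proficient arrays (difference −0.82, adjusted p 0.565). In IFIT3, unlike the other family members, RB-deficient array 1 was the highest of its group, at 5.73.

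**Figure D2:**
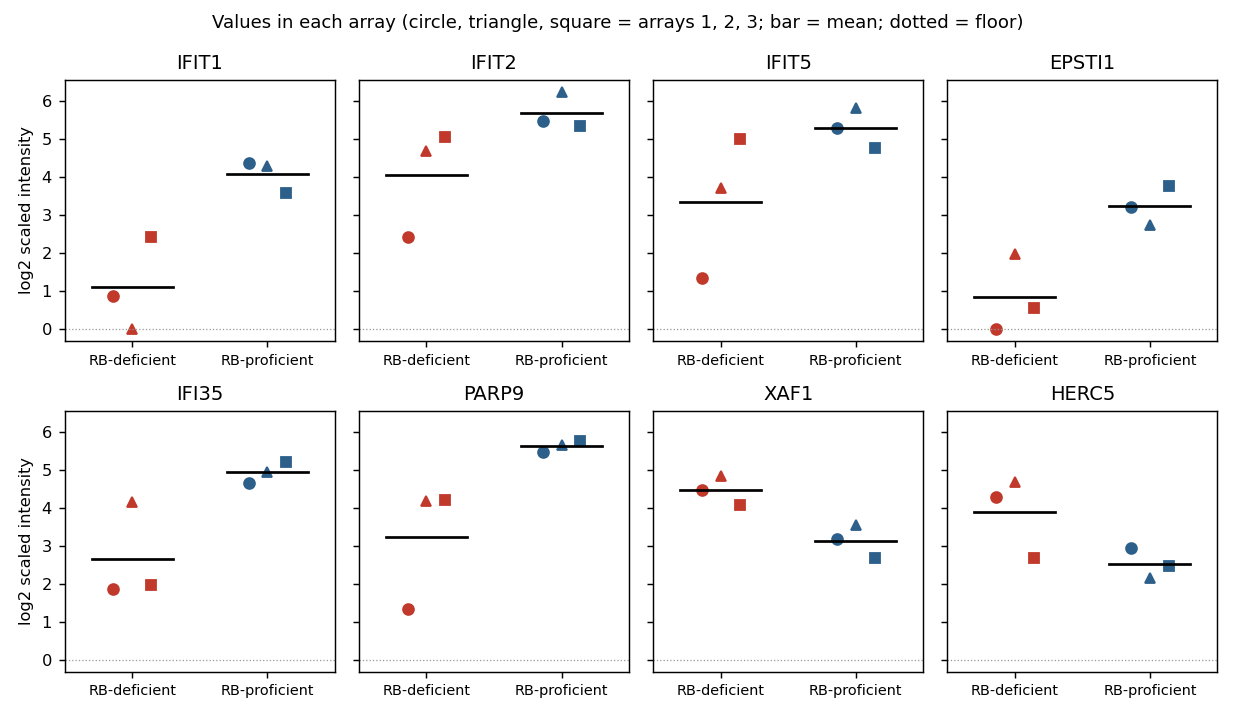
Each panel is a gene, with log2 scaled intensity on the vertical axis, RB-deficient arrays in red on the left and RB-proficient arrays in blue on the right (n = 3 each, bar = mean, dotted line = floor at 0). In IFIT1, IFIT2, EPSTI1, IFI35 and PARP9 every RB-deficient point lies below every RB-proficient point, in XAF1 every one lies above, and in IFIT5 and HERC5 the groups overlap.

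The OAS family makes the second messenger that activates the RNA-degrading enzyme RNase L. OAS1, OAS2 and OAS3, which lie side by side on chromosome 12, had differences of −0.67, −0.84 and −1.004 (adjusted p 0.665, 0.665 and 0.603). In each of them RB-deficient array 1 was the lowest of the 6 arrays, at 6.39, 1.60 and 1.01, while the RB-proficient values ran from 7.88 to 8.68, 4.39 to 4.59 and 3.81 to 4.37. RB-deficient array 2 lay above the RB-proficient range in OAS1 and OAS2 and within it in OAS3. OASL, a relative without that enzyme activity that enhances RIGI signalling, had values of 5.40, 5.97 and 5.11 in the RB-deficient arrays, against 4.85, 3.75 and 4.98 in the RB-proficient arrays. OASL was thus higher in all 3 RB-deficient arrays with no overlap, by 0.96 (SE 0.54, adjusted p 0.46), or by 0.58 without RB-proficient array 2. The antiviral GTPases MX1 and MX2 had differences of 0.69 (SE 0.61) and 0.07 (SE 0.67), with overlapping groups.

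In the ISG15 system, ISG15 is the ubiquitin-like modifier, HERC5 and HERC6 are ligases, the first of which attaches ISG15 in human cells, and USP18 removes it and damps interferon signalling. ISG15 had values of 6.11, 6.03 and 4.64 in the RB-deficient arrays, against 6.30, 6.36 and 6.74 in the RB-proficient arrays. The groups did not overlap, but arrays 1 and 2 lay just below the RB-proficient range and array 3 was far below (difference −0.87, SE 0.55, adjusted p 0.509, and −0.40 without RB-deficient array 3). USP18 averaged 2.84 ± 1.18 (SD, n = 3) in the RB-deficient arrays and 2.87 ± 0.29 in the RB-proficient arrays, a difference of −0.03 with an interval of −1.47 to 1.41. HERC5 had values of 4.28, 4.67 and 2.68 in the RB-deficient arrays, against 2.95, 2.16 and 2.46 in the RB-proficient arrays, with arrays 1 and 2 above every RB-proficient value and array 3 among them. Its difference was 1.35 (SE 0.62, unadjusted p 0.0554, adjusted p 0.373). The HERC5 difference was 0.32 with the floor of 16 and 0.55 with the offset of 16. Without RB-deficient arrays 1 and 2 it was 0.15. HERC6 had values of 0.00, 6.32 and 5.97 in the RB-deficient arrays, against 7.52, 6.57 and 6.03 in the RB-proficient arrays. Array 1 was at the floor and the others overlapped or nearly met the RB-proficient range, so the difference of −2.61 (SE 1.43) became −0.56 without RB-deficient array 1.

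Among the other antiviral effectors, 0 of 6 passed the unadjusted p, which 10.8% of all genes did as lower and 2.85% as higher. In this group 5 of 6 differences were above 0 and 16.7% below 0, against 58.6% of all genes below 0. CMPK2, a nucleotide kinase, and its neighbour RSAD2, the radical-SAM enzyme viperin, differed by 0.05 (95% interval −1.10 to 1.20) and 0.03 (−1.50 to 1.55). BST2, the tether that retains budding virus, and ISG20, a 3′ exonuclease, differed by 0.40 (SE 0.51) and 0.41 (SE 0.48). SAMD9, a cytosolic restriction factor, averaged 8.72 ± 1.27 (SD, n = 3) in the RB-deficient arrays and 8.55 ± 1.24 in the RB-proficient arrays. Its neighbour SAMD9L, shown in full after its values were seen, had 0.00, 8.00 and 7.47 in the RB-deficient arrays, against 6.94, 7.52 and 5.57 in the RB-proficient arrays. Array 1 was at the floor, and arrays 2 and 3 lay above or near the top of the RB-proficient range.

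The interferon-induced IFI genes and their associates were split. IFI35, a regulator of innate signalling, had values of 1.87, 4.14 and 1.98 in the RB-deficient arrays, against 4.64, 4.95 and 5.21 in the RB-proficient arrays. All 3 RB-deficient values lay below the RB-proficient ones, with array 2 the closest (difference −2.27, SE 0.67, 4.82-fold lower, unadjusted p 0.00741, adjusted p 0.231), and the difference was −0.88 with the floor of 16 and −0.98 with the offset of 16. EPSTI1, named for its induction in breast epithelium by stroma, had values of 0.00, 1.98 and 0.56 in the RB-deficient arrays, against 3.22, 2.73 and 3.76 in the RB-proficient arrays, with array 1 at the floor and no overlap. Its difference was −2.39 (SE 0.62, unadjusted p 0.00364, adjusted p 0.213), and −0.53 with the offset of 16. XAF1, an antagonist of the apoptosis inhibitor XIAP, had values of 4.47, 4.82 and 4.07 in the RB-deficient arrays, against 3.17, 3.54 and 2.68 in the RB-proficient arrays. XAF1 was above the RB-proficient range in every RB-deficient array (difference 1.33, SE 0.50, 2.51-fold higher, unadjusted p 0.0252, adjusted p 0.294). The XAF1 difference was 0.45 with the floor of 16 and 0.61 with the offset of 16, and its unadjusted p was 0.0746 without RB-proficient array 1, 0.111 without RB-proficient array 3 and 0.0692 with a robust variance trend. The other 4, all with overlapping groups, were IFI6, an antiviral protein of mitochondria and endoplasmic reticulum (−0.31), IFI27 (−0.04), and the neighbours IFI44 (−0.15) and IFI44L (−0.55).

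PARP9 and DTX3L form a complex that joins a macrodomain protein of the PARP family to a ubiquitin ligase and enhances interferon responses. PARP9 had values of 1.33, 4.18 and 4.20 in the RB-deficient arrays, against 5.46, 5.65 and 5.75 in the RB-proficient arrays. The RB-proficient values of PARP9 lay within a narrow band, and all RB-deficient values lay below it, array 1 furthest (difference −2.38, SE 0.77, 95% interval −4.11 to −0.66, unadjusted p 0.0119, adjusted p 0.256). Without RB-deficient array 1 the difference was −1.43. With a floor of 16 the PARP9 difference was −1.49 and passed over all genes (adjusted p 0.0415, with 58 of 18417 genes passing), the only member to do so in any of the 18 alternative settings, whereas with the offset of 16 it was −1.23 and did not pass. DTX3L had values of 6.14, 0.05 and 5.64 in the RB-deficient arrays, against 6.26, 5.31 and 7.08 in the RB-proficient arrays. Here array 2 was near the floor while arrays 1 and 3 overlapped the RB-proficient range, so the difference of −2.27 (SE 1.39) became −0.32 without RB-deficient array 2. The 2 partners, whose promoter windows overlap, were thus lowest in different arrays.

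The chemokines CXCL10 and CXCL11 attract T cells through the receptor CXCR3. CXCL10 averaged 2.50 ± 2.24 (SD, n = 3) in the RB-deficient arrays and 2.81 ± 0.19 in the RB-proficient arrays, with RB-deficient array 2 the highest and array 3 the lowest of all 6 arrays (difference −0.31, interval −2.46 to 1.83). CXCL11 averaged 6.66 ± 0.55 (SD, n = 3) in the RB-deficient arrays and 6.93 ± 0.49 in the RB-proficient arrays (difference −0.28, adjusted p 0.834).

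**Figure D3:**
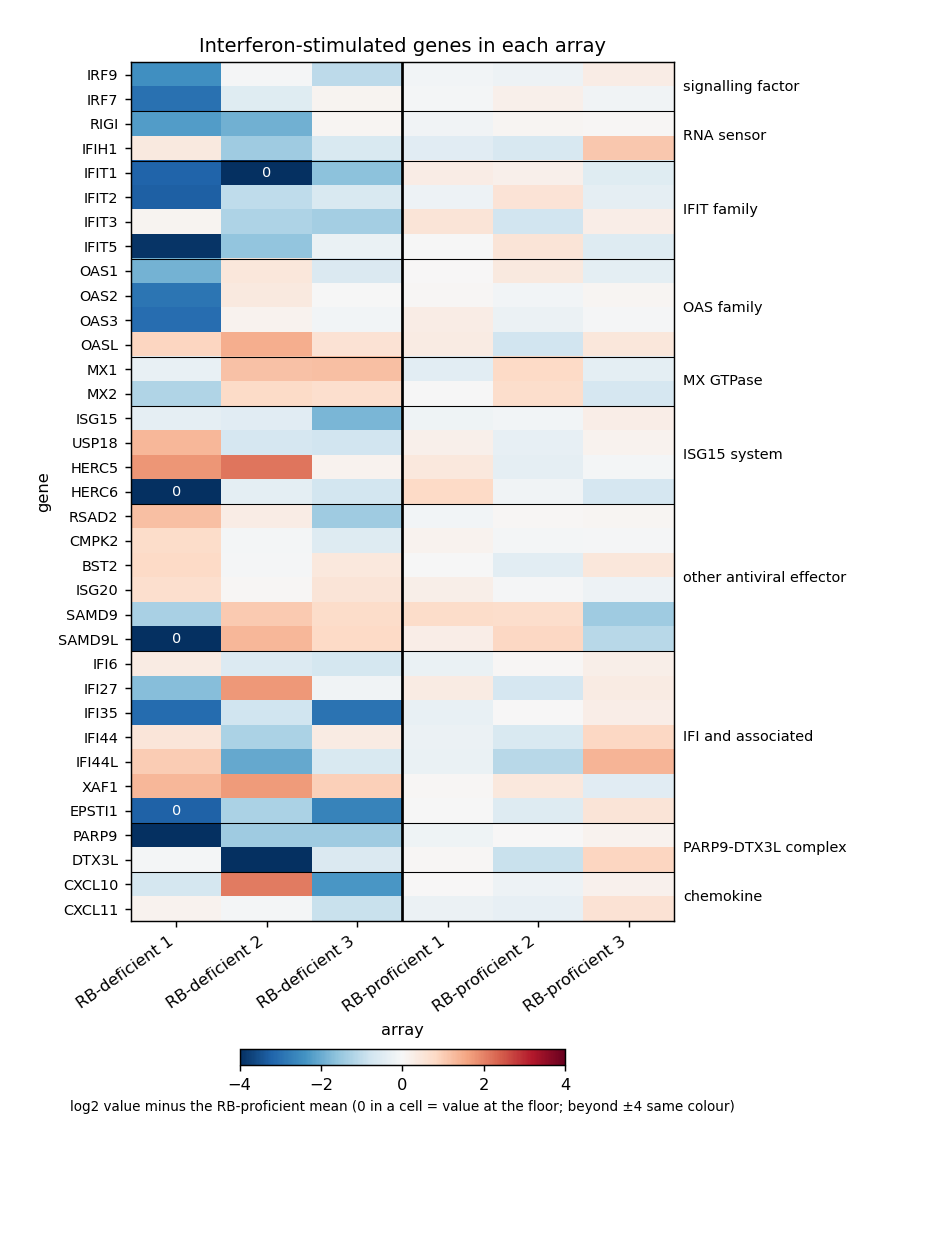
Rows are the 35 genes by role and columns the 6 arrays, and the colour is the log2 value minus the mean of the RB-proficient arrays (blue lower, red higher, 0 marks a value at the floor). RB-deficient array 1 holds 3 genes at the floor (8.57%, against 4.71% of all genes) and array 2 holds 1 (2.86%, against 1.62%). In the RB-proficient arrays 0.326% to 0.684% of all genes are at the floor. The IFIT1, IFI35, EPSTI1 and PARP9 rows are blue in all 3 RB-deficient columns.

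The members varied more among the RB-deficient than among the RB-proficient arrays. A member's SD had a median of 1.22 in the RB-deficient arrays and 0.43 in the RB-proficient arrays, against 0.84 and 0.40 over all genes. The values of the 3 RB-deficient arrays spanned over 2 on the log2 scale for 20 members (57.1%, against 35.6% of all genes), and those of the RB-proficient arrays for 2 members (5.71%, against 6.69%). RB-deficient array 1 was the lowest of the 6 arrays for 15 members (42.9%, against 27.6% of all genes), array 2 for 5 (14.3%, against 29.9%) and array 3 for 8 (22.9%, against 14.8%). The median of the members relative to the RB-proficient mean was −0.72, −0.08 and −0.57 in RB-deficient arrays 1, 2 and 3, against −0.14, −0.37 and −0.14 for all genes. In array 1, 17 of 35 members lay more than 2-fold below the RB-proficient mean and 5 more than 2-fold above it, against 29.3% and 19.4% of all genes. These counts were 11 and 8 in array 2, against 30.5% and 18% of all genes, and 9 and 1 in array 3, against 15.1% and 7.8%. In 22 of 35 members every RB-proficient value was above 4 on the log2 scale, and 1 member, EPSTI1, was below 4 in every array. All 3 RB-deficient arrays were below the RB-proficient mean for 10 members (28.6%, against 27.2% of all genes), all 3 above for 4 (11.4%, against 14.3%), and on both sides for 21 (60%, against 58.5%).

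**Figure D4:**
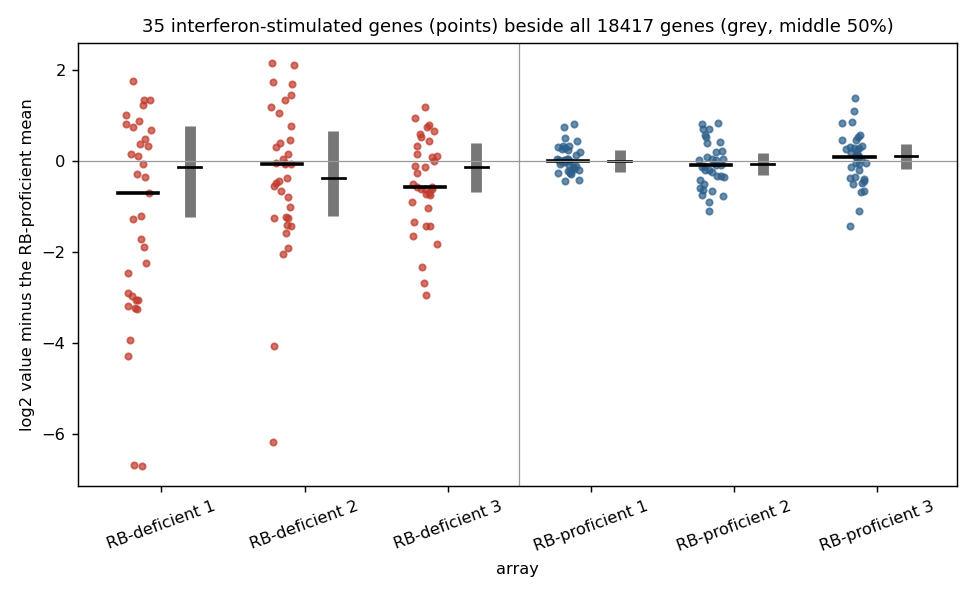
For each array, points are the 35 genes as log2 value minus the RB-proficient mean, the thick black line is their median, and the grey bar with its line is the middle 50% and median of all genes. The points of RB-deficient arrays 1 and 2 reach below −6, with medians of −0.72 and −0.08, and the lowest point of the RB-proficient arrays is at −1.43.

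Genes that lie next to each other did not always share a pattern. The IFIT genes on chromosome 10 had differences of the same sign. So did OAS1, OAS2 and OAS3 on chromosome 12, but without RB-deficient array 1 their differences were −0.06, 0.19 and 0.02. HERC6 and HERC5, adjacent on chromosome 4, had differences of −2.61 and 1.35, and in RB-deficient array 1 HERC6 was at the floor while HERC5 was above its RB-proficient range. SAMD9 and SAMD9L, adjacent on chromosome 7, had differences of 0.17 and −1.52, and of 0.90 and 1.06 without RB-deficient array 1, where SAMD9L was at the floor. In CMPK2 and RSAD2 on chromosome 2 the order of the RB-deficient arrays was the same, with array 1 highest and array 3 lowest, and the differences were 0.05 and 0.03. These pairs were chosen after their values were seen.

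**Figure D5:**
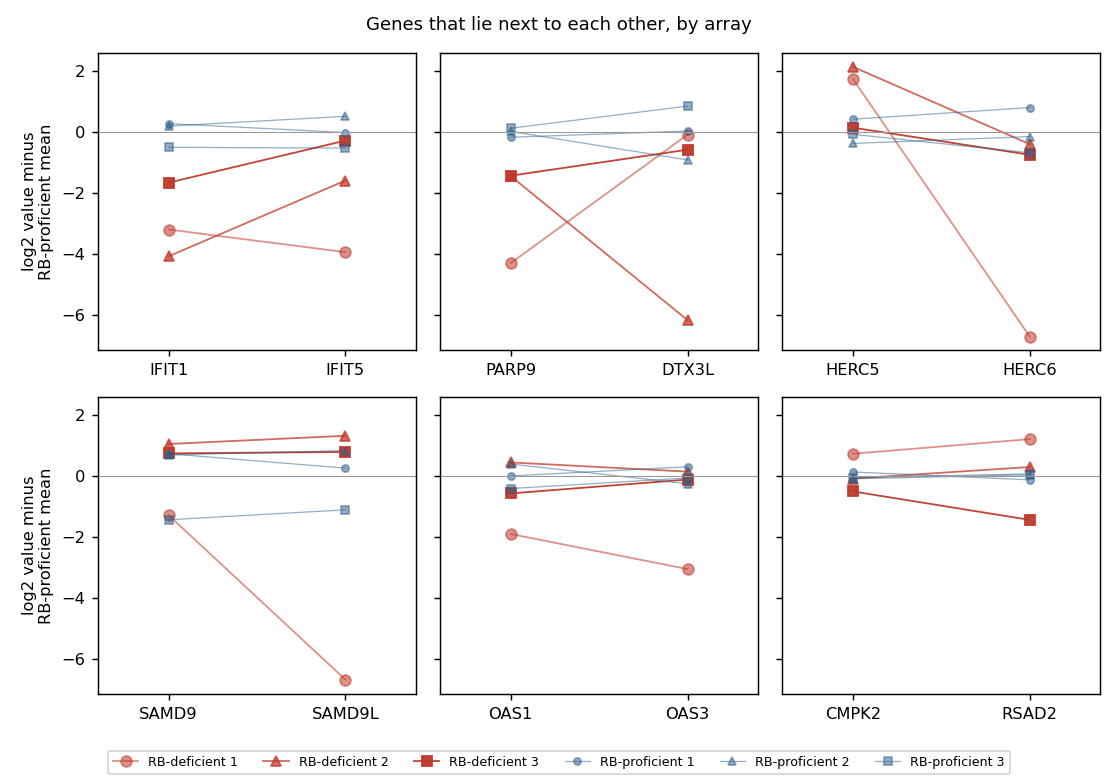
Each panel joins the log2 values, minus the RB-proficient mean, of 2 neighbouring genes within each array (red RB-deficient, blue RB-proficient; circle, triangle and square are arrays 1, 2 and 3). In RB-deficient array 1 the line drops from HERC5 to HERC6 and from SAMD9 to SAMD9L, and rises from PARP9 to DTX3L (−4.29 to −0.08). In RB-deficient array 2 it drops from PARP9 to DTX3L. The blue lines move less than these, though RB-proficient array 2 falls from 0.03 in PARP9 to −0.90 in DTX3L. RB-proficient array 3 lies at −1.43 in SAMD9 and −1.11 in SAMD9L.

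Upstream of these genes, the interferon genes themselves were mixed, with a median of −0.07. Of 16 measured differences 9 were below 0 (56.2%, against 58.6% of all genes). IFNK, the interferon of keratinocytes, had values of 0.00, 0.00 and 2.71 in the RB-deficient arrays, against 4.93, 5.56 and 4.76 in the RB-proficient arrays. IFNK was below the RB-proficient range in all 3, and at the floor in arrays 1 and 2 (difference −4.18, SE 0.76, unadjusted p 0.000307, adjusted p 0.206). IFNB1, the early type I interferon, had values of 4.25, 4.71 and 3.78 in the RB-deficient arrays, against 1.33, 3.41 and 2.53 in the RB-proficient arrays, and lay above their range in all 3 (difference 1.83, SE 0.62, adjusted p 0.274). Of the receptors and kinases, 7 of 9 differences were below 0 (77.8%, against 58.6% of all genes, median −0.59). JAK1 had a difference of −1.37 (SE 0.55, unadjusted p 0.0332) with no overlap, TYK2 of 0.43, and the receptor chains IFNAR1 and IFNAR2 of −0.59 and −0.16. Of 7 measured STAT and IRF factors 0 passed the unadjusted p, which 10.8% of all genes did as lower and 2.85% as higher. IRF1, a factor induced by interferon gamma, was at −0.83 and IRF3, which acts upstream of interferon, at 0.15.

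For the lists that follow, the shares of all genes are 58.6% with differences below 0, 10.8% lower and 2.85% higher at the unadjusted p. Among genes of nucleic acid sensing, 16 of 20 differences were below 0 (80%, median −0.66), 5 passed the unadjusted p as lower (25%) and 0 as higher. They include the adaptor MYD88 (−1.80, SE 0.54), the ubiquitin ligase TRAF3 (−2.09, SE 0.70), the DNA sensor IFI16 (−1.28, SE 0.49) and the RIGI relative DHX58 (−1.23, SE 0.51). Of 13 negative regulators 11 were below 0 (84.6%, median −0.72) and 3 passed the unadjusted p as lower (23.1%), among them TRIM21, an antibody receptor and ubiquitin ligase (−2.38, SE 0.82). A further list of 46 measured interferon-stimulated genes that are not members had a median of −0.51, with 30 below 0 (65.2%), 11 lower (23.9%) and 1 higher (2.17%) at the unadjusted p. The smallest p-values of that list belonged to APOL1, an apolipoprotein (−3.01, SE 0.81), TRANK1 (−3.09, SE 0.84), the RNA editor ADAR (−1.76, SE 0.48) and TRIM22, an antiviral ubiquitin ligase (−2.07, SE 0.56). The smallest adjusted p over all these upstream and further lists was 0.206, that of IFNK.

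Other gene lists were read in the same arrays. The reference genes ACTB and GAPDH had differences of −1.92 and −1.23, with no overlap between groups. Of 10 measured mammary epithelial markers 9 were lower (median −1.33), and their summed scaled intensity was 3249 to 3842 in the RB-deficient arrays and 5082 to 7381 in the RB-proficient arrays, with 0 markers at the floor. Of 13 measured leukocyte markers 11 had differences above 0 (median 0.55), 2 passed the unadjusted p as higher and 1 as lower, and their summed scaled intensity was 424 to 512 in the RB-deficient arrays and 452 to 567 in the RB-proficient arrays. PTPRC, the pan-leukocyte phosphatase CD45, had values of 3.45, 3.51 and 4.21 in the RB-deficient arrays, against 1.35, 2.78 and 2.91 in the RB-proficient arrays, with no overlap, and 0 leukocyte markers were at the floor. CD68, the 1 leukocyte marker that passed as lower, also had no overlap (difference −1.16, SE 0.47). The part of these genes in the results for the interferon-stimulated genes was not tested. All arrays are of a single epithelial cell line, and the labels name no leukocytes or other cell type. In bulk samples of that line, fewer cells that express a gene and less RNA per cell cannot be told apart.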

How the data were processed

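Expression was measured on 6 single-channel arrays, 3 labelled RB-deficient and 3 RB-proficient. The submitters' processing notes name Affymetrix Expression Console 1.1. How probes were summarised, corrected for background and normalized is not given there. The deposited values were linear intensities, 1 per probe set and array, from 3.53e-05 to 7075.

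The deposited intensities of each array were multiplied to bring its median to that of the others, raised to 1 where lower, and converted to log2. Of 33297 probe sets, 19460 had 1 gene symbol in the platform annotation supplied with the data, and 1754 had several and 12083 were not listed, which were left out. Of a gene's probe sets the one with the highest mean over the 6 arrays was used, giving 18417 genes. The test was that of limma 3.58.1 under R 4.3.3 (lmFit, eBayes, two-sided, no covariates, Benjamini-Hochberg over all genes, threshold 0.05). The fit was run on simulated data with the same spread in both groups and no floor, unlike these arrays. That run therefore does not show how well the p-values hold here. Figures and motif counts used Python 3.11.15. Promoters came from RefSeq (GRCh38.p14). The members and gene lists were chosen with earlier results of these data known. Values of every array are given for the 14 members with the smallest p and for IRF9, IRF7 and ISG15 in any case, and other genes named are at most 4 per list plus fixed pathway genes. Lists covered interferons, receptors, STAT and IRF factors, sensing, negative regulators, further interferon-stimulated genes, leukocyte, fibroblast, endothelial and mammary epithelial markers, and reference genes. No pair of arrays held identical values. No pairing of arrays was used.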

Additional observations from a re-analysis of the deposited data

How the results depend on the processing

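The counts and the median were recomputed in 18 alternative settings. No member passed an adjusted p of 0.05 in 17 of them, and 1 did, PARP9, with a floor of 16 (adjusted p 0.0415, difference −1.49), where 58 of all genes passed (0.315%, against 0.00543% with the main settings). The number past an unadjusted p of 0.05, 7 with the main settings, was 3 with the floor of 16. It was 3 and 1 without the dimmest 25% and 50% of genes, and 4 to 9 with single arrays left out. Of all genes, 11.1% were lower and 3.64% higher at that p with the floor of 16. Those shares were 13.6% and 2.84% without the dimmest 25%, and 15.4% and 2.43% without the dimmest 50%. With single arrays left out they ran from 5.35% to 15.8% lower and from 1.34% to 5.34% higher. With the replicate block 9 members passed that p, 8 lower and 1 higher, against 11% and 2.19% of all genes. The block changed no adjusted call. The deviations of same-numbered arrays from their group means had correlations of −0.12, 0.07 and −0.11 over all genes. Those of differently numbered arrays ran from −0.18 to 0.24. The deviations of the 3 arrays of a group cancel out, which constrains these correlations. They cannot show whether same-numbered arrays shared a culture or handling. Members lower with no overlap, 6 with the main settings, numbered 3 and 1 without the dimmest 25% and 50% of genes, 16 without RB-deficient arrays 1 and 2 (37.6% of all genes), and 6 to 10 with single arrays left out (17.9% to 26.2% of all genes). Members higher with no overlap, 2 with the main settings, numbered 1 with either filter, 5 without RB-deficient arrays 1 and 2 (25.5% of all genes), and 2 to 4 with single arrays left out (8.96% to 15.5% of all genes). The filters kept 23 and 16 of the 35 members, so fewer genes could be counted. Of all genes kept, 17.1% and 19.2% were lower with no overlap, and 7.07% and 6.01% were higher. The median of the members, −0.55 with the main settings, was −0.19 with the floor of 16 and −0.87 to −0.48 with single arrays left out.

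Of 254 recomputed differences of 15 named members, 252 kept their direction. Without RB-deficient arrays 1 and 2, where the lone RB-deficient array is assumed to vary like the others, IRF7 (0.11) and RIGI (0.077) turned round. With the offset of 16 all 15 differences were smaller in size, 14 of them by over 1.5 times, and with the floor of 16 10 of 14 moved by over 1.5 times, EPSTI1 then being at that floor in all arrays. The remaining causes were not tested. Whether a dim probe set lay above background is unknown here.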

Other observations

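Markers of other cell types were read in the same fit. Of 9 measured fibroblast markers, 5 had differences above 0 and 4 below (median 0.32). COL3A1, a fibrillar collagen, differed by −2.28 (SE 1.00, unadjusted p 0.0464), and COL1A1 by 0.83 (SE 0.55). THY1, a surface glycoprotein of fibroblasts, had values of 0.00, 4.24 and 4.19 in the RB-deficient arrays, against 4.65, 4.55 and 5.04 in the RB-proficient arrays, so that array 1 alone was at the floor. Of 7 measured endothelial markers, 4 were below 0 and 0 passed an unadjusted p of 0.05 (median −0.41). CDH5, the cadherin of endothelial junctions, differed by −0.86 (SE 0.47), with no overlap between groups. Of 6 measured reference genes 4 were below 0 (median −0.85).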
